A study of Mus musculus with 6 samples.

Results

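The genes described here encode the translation initiation factors (symbols that begin with Eif) and the translation elongation factors (symbols that begin with Eef), together with the kinases, repressors and methyltransferases that carry these names. They were taken by symbol from the array's annotation, leaving out Eif2s3x and Eif2s3y, and each gene was read from its probe set (a group of oligonucleotides scored together) with the highest mean signal. This gave 60 genes of 19938, of which 47 were Eif genes and 13 were Eef genes. Their RNA was measured in 3 sanroque (Roquinsan/san) and 3 wild-type (Roquin+/+) mice, all 10 weeks old and on a C57BL/6 background. Each of the 6 Affymetrix arrays held RNA of 1 biological replicate of sorted CD44loCD8+ T cells, that is CD8+ T cells with low surface CD44, from spleen and lymph node. Sanroque mice are homozygous for a point mutation of Roquin, an RNA-binding protein encoded by Rc3h1 that represses many mRNAs. The mutation is present in every cell of these mice, so an effect within CD8+ T cells and an effect of the altered animal around them cannot be told apart here.

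Translation of an mRNA starts when eIF4F binds the cap and brings in the small ribosomal subunit, which already carries eIF1, eIF1A, eIF3, eIF5 and the initiator tRNA bound to eIF2. After the start codon is found, eIF2 leaves with GDP and is recharged with GTP by eIF2B. Stress kinases phosphorylate eIF2 and thereby block eIF2B, while 4E-BP proteins hold eIF4E away from eIF4F. The eEF1 factors then deliver aminoacyl-tRNAs and eEF2 moves the ribosome along. Naive CD8+ T cells keep protein synthesis low and raise it steeply once activated.

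Promoter sequences are shown for 3 genes that fell in sanroque cells (Eif1b, Eef1e1 and Eif2b1) and for Eif2ak2, the factor gene with the largest positive difference. They were taken from RefSeq (build GRCm38.p6) and are written on the strand of the gene. The first 3 are the 150 bases before the annotated start, and the last is a stretch of 30 bases around a match that lies just after the start. Capitals mark matches, on either strand, to an ETS-type site (CCGGAAG), an E-box (CACGTG) or the core of the interferon-stimulated response element, which is GAAA, any 2 bases and GAAA again.
Eif1b, chr9:120492456-120492605, plus strand: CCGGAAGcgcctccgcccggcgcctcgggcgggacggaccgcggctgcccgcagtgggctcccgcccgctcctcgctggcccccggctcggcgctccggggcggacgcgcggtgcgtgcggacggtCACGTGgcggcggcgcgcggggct
Eef1e1, chr13:38659029-38659178, minus strand: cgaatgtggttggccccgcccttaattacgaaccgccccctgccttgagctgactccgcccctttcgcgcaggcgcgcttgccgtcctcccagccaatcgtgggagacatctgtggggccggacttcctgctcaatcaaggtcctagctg
Eif2b1, chr5:124579132-124579281, minus strand: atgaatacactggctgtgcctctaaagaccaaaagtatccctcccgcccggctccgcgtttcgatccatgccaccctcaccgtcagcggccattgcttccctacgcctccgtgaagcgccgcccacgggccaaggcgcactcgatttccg
Eif2ak2, chr17:78882533-78882562, minus strand: tccgccggGAAAACGAAAcagaagagaacc

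The Eif1b stretch holds an ETS-type site that begins 150 bases before the start and an E-box that begins 24 bases before it, and these do not overlap. Such matches are of letters alone, and binding was not measured. The stretches of Eef1e1 and Eif2b1 hold none of the 3 motifs. RefSeq promoters of 300 bases were at hand for 47 of the 60 genes, with 62 promoters in all because some genes have several. An E-box was found in 14 of these 62 promoters (22.6%), against 7.15% of all 32851 promoters. An ETS-type site was found in 19 of the 62 (30.6%), against 8.86% of all. The interferon-stimulated element was found in 2 of the 62 (3.23%), in Eif2ak2 and Eif3a, against 3.44% of all. Over the 150 bases before the start, the median GC content was 65.7% in the factor genes' promoters and 54% in all promoters, so the shares of GC-rich motifs are set against sequence of another composition. The promoters of Eif6, Eif3h and Eif4e3 are named only.

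In sanroque CD8+ T cells, 5 of the 60 factor genes fell and 1 rose relative to wild type (limma, Benjamini-Hochberg adjusted p under 0.05 over all 19938 genes). Those that fell were Eef1e1, Eif2b1, Eif1b, Eif6 and Eif3h, and the gene that rose was Eif4e3. The fallen genes reached 63.8% to 80.4% of the wild-type level, and Eif4e3 reached 1.31 times it. The share called lower was 8.33% of the factor genes, against 2.51% of all genes on the array. The share called higher was 1.67% of the factor genes, against 3.26% of all genes. Of the 60 factor genes, 58 had a mean level of at least 6, and 8.62% of these were called lower and 1.72% higher, against 4.98% and 4.81% of all 9750 genes with such a level. The 3 sanroque values all lay below the 3 wild-type values for 19 of the 60 genes (31.7%), against a background of 13.2%. They all lay above for 8 of the 60 (13.3%), against a background of 9.46%. Among genes with a mean level of at least 6, the shares were 32.8% of the factor genes against 20.6% of all such genes for lower, and 13.8% against 13.5% for higher. The median difference was -0.11 on the log2 scale over the factor genes, against -0.03 over all genes and -0.05 over all genes with a mean level of at least 6. Without wild type 2 the factor genes did not stand apart by this median, which was -0.052 for them and -0.053 for all genes.

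The calls depended on single arrays, for the factor genes and for all genes. With all arrays, limma called 501 of all 19938 genes lower. This count was 148, 55, 22 and 91 without sanroque 1, sanroque 2, wild type 1 and wild type 2. It was 728 without sanroque 3 and 454 without wild type 3. No factor gene was called lower by limma without sanroque 1, sanroque 2, wild type 1 or wild type 2 (12 to 16 were lower at an unadjusted p under 0.05), whereas 7 were called without sanroque 3 and 5 without wild type 3. Of the 5 that fell, Eef1e1, Eif2b1, Eif1b and Eif6 were among both of those sets, with Eif2b3, Eif3l and Eif4a2 added in the first and Eif2b2 in the second. Eif3h lost its call whichever array was left out (adjusted p = 0.0502 to 0.179). Eif4e3 stayed called only when sanroque 3 was left out, and with quantile normalization the only gene called higher was Eif2ak1 (adjusted p = 0.0432) and not Eif4e3 (0.0707). Because RNA was taken from a pool of sorted cells, fewer cells of a type and less RNA per cell cannot be told apart.

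**Figure D1:**
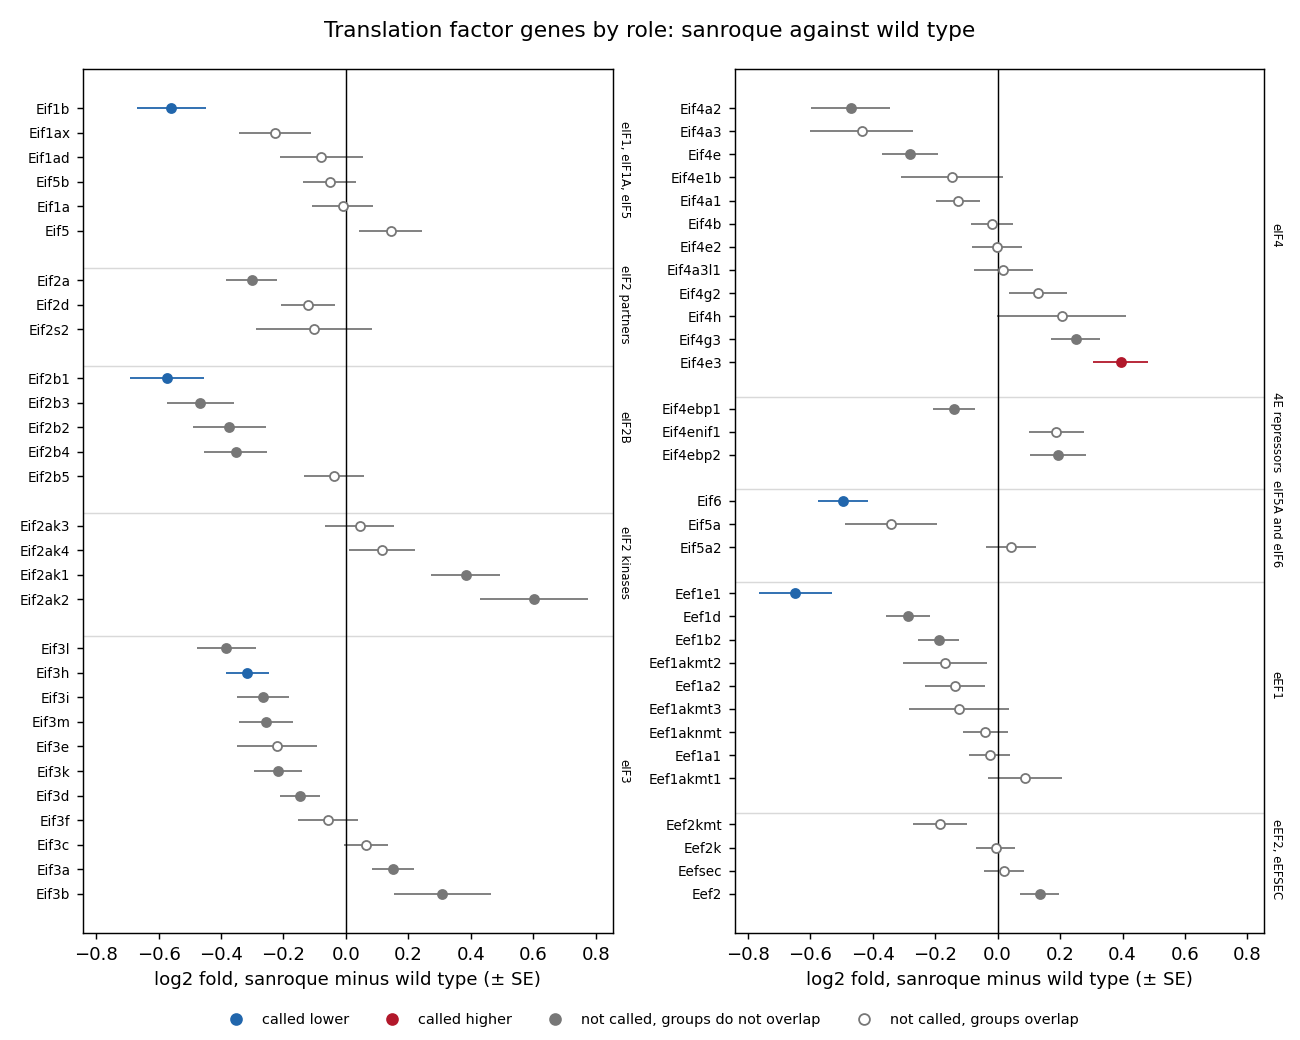
Log2 difference in intensity, sanroque minus wild type, with its standard error, for each of the 60 factor genes, grouped by the role of the product. Filled coloured points passed the test, filled grey points did not pass but have groups that do not overlap, and open points have groups that overlap. The eIF2B genes and most eIF3 genes lie left of 0, the 4 eIF2 kinase genes lie right of it, and all values fall between -0.65 and 0.60.

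The label of the sorted cells was checked against its defining genes. Cd8a read 12.99, 13.02 and 12.99 log2 intensity on the sanroque arrays, against 13.05, 13.00 and 13.02 on the wild-type arrays. Cd44, whose surface protein was sorted for a low level, read 7.34, 7.70 and 7.90 in sanroque arrays, against 5.98, 6.43 and 6.34 in wild-type arrays. Its RNA was thus higher in every sanroque sample, by 1.40 ± 0.17 (adjusted p = 0.00669). Of the 5 CD8 T cell markers measured, 1 fell (Cd3d, adjusted p = 0.0263). Many genes listed as markers of other cells were higher in the sanroque samples, with 12 of 14 myeloid, 7 of 12 B cell, 5 of 6 plasma cell, 3 of 6 CD4 T cell and 3 of 5 NK cell markers called higher and none called lower. Some of these, such as Ctla4, Ikzf2, Eomes, Prdm1 and Irf4, are also used by activated CD8+ T cells. Also called higher were Jchain, Mzb1 and Xbp1 of the plasma cell list, Klre1 and Fcgr3 of the NK cell list, and Zbtb7b of the CD4 T cell list. Cd4 (limma adjusted p = 0.0783), Foxp3, Cd40lg and Klrb1c were not called, though all their sanroque values lay above wild type. Ncr1 and Sdc1 were not called and had overlapping groups. The myeloid markers summed to between 9162 and 14010 intensity units in sanroque arrays, against 1938 to 2816 in wild-type arrays. The largest marker differences were those of Ngp and S100a8, genes of neutrophil granules and cytosol, at 4.12 and 4.07 on the log2 scale. The B cell markers summed to between 9685 and 12110 in sanroque arrays, against 2577 to 6545 in wild-type arrays. Sums in sanroque and in wild-type arrays were 1699 to 2322 against 544.4 to 847.9 for plasma cells, 723.2 to 1082 against 393 to 439.1 for CD4 T cells, 765.7 to 1142 against 382.6 to 458.5 for NK cells, and 28560 to 29640 against 30730 to 32420 for CD8 T cells. Of these lists, Cd14 and Ncr1 lay between 4.15 and 4.63 in sanroque and between 4.13 and 4.84 in wild type, near the low end of the scale. The only erythroid marker measured, Alas2, was not called. Of 15 cell cycle genes, 9 rose and none fell. The sum over the 15 was 4200 to 4900 in sanroque arrays against 3408 to 3898 in wild-type arrays. Pcna, with the highest signal of this list, was lower in every sanroque array and not called (-0.29, adjusted p = 0.168). The median level of the list was 7.31 to 7.44 in sanroque arrays against 5.52 to 5.82 in wild-type arrays. The part that other cells, activated CD8+ T cells or dividing cells had in the differences of the factor genes was not tested.

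The genes grouped with eIF1, eIF1A and eIF5 were 6, of which 1 fell. Eif1b encodes a close relative of eIF1, the factor that guards against starting at the wrong codon. It read 9.42, 9.39 and 9.54 in sanroque arrays, against 10.10, 10.14 and 9.77 in wild-type arrays. All sanroque values were below all wild-type values, with wild type 3 the nearest to them. The difference was -0.56 ± 0.11 (SE) on the log2 scale, with a limma adjusted p of 0.0336. Eif5, which encodes the GTPase-activating partner of eIF2, read 10.19, 10.35 and 10.56 in sanroque arrays and 10.22, 10.27 and 10.18 in wild-type arrays. Those groups overlapped, and the difference of 0.14 ± 0.10 did not pass (adjusted p = 0.57). Eif1ax, an X-linked copy of eIF1A, differed by -0.23 ± 0.12 with overlapping groups, and Eif1a, Eif1ad and Eif5b differed by -0.08 to -0.01.

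The 3 genes counted with eIF2 gave no call, and 1 was lower at an unadjusted p under 0.05. That gene was Eif2a, whose product can bring the initiator tRNA to the ribosome without eIF2. It read 9.71, 9.63 and 9.59 in sanroque arrays, against 9.94, 10.07 and 9.83 in wild-type arrays, so that the groups did not overlap. The difference was -0.30 ± 0.08, with a limma adjusted p of 0.0857. Eif2s2, the beta subunit of eIF2, and Eif2d, which also loads tRNA, differed by -0.10 and -0.12 with overlapping groups.

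The 5 subunits of eIF2B all had negative differences, and in 4 of them the groups did not overlap. Among all genes, 61.5% had a negative difference and 13.2% had all sanroque values below all wild-type values. With a mean level of at least 6, these shares were 58.9% and 20.6%. Eif2b1 encodes the alpha subunit, through which the complex senses phosphorylated eIF2. It read 7.71, 7.58 and 7.82 in sanroque arrays, against 8.34, 8.44 and 8.04 in wild-type arrays. Its difference of -0.57 ± 0.12 passed the test (adjusted p = 0.0386). Eif2b3, the gamma subunit that pairs with the catalytic one, read 8.41, 8.20 and 8.61 in sanroque arrays and 8.91, 8.86 and 8.85 in wild-type arrays. Here the wild-type arrays lay close together and the sanroque arrays were spread out, and the difference of -0.47 ± 0.11 missed the threshold (adjusted p = 0.0527). Eif2b2, the beta subunit, read 8.83, 8.82 and 9.04 in sanroque arrays and 9.43, 9.33 and 9.04 in wild-type arrays. Sanroque 3 and wild type 3 were only 0.00831 apart for this gene, and the difference of -0.37 ± 0.12 did not pass (adjusted p = 0.123). Eif2b4, the delta subunit, read 7.00, 7.22 and 6.98 in sanroque arrays and 7.42, 7.55 and 7.29 in wild-type arrays. Its groups were 0.0629 apart, and the difference of -0.35 ± 0.10 did not pass (adjusted p = 0.0965). Eif2b5, the catalytic epsilon subunit, differed by -0.04 ± 0.09 with overlapping groups.

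The 4 kinases that phosphorylate eIF2 all had positive differences and none passed the test by limma, with 2 higher at an unadjusted p under 0.05. Among all genes 38.5% had a positive difference. Eif2ak2 encodes PKR, which is switched on by double-stranded RNA and whose gene responds to interferon. It read 8.37, 8.43 and 8.16 in sanroque arrays, against 7.85, 7.99 and 7.32 in wild-type arrays. All sanroque values lay above all wild-type values, and wild type 3 was low within its group. The difference was 0.60 ± 0.17, or 1.52-fold, with a limma adjusted p of 0.102. The interferon-type match printed above for this gene begins 19 bases into the transcript. Eif2ak1, the heme-regulated kinase, read 8.42, 8.69 and 8.80 in sanroque arrays and 8.17, 8.37 and 8.23 in wild-type arrays. These groups were 0.0535 apart, and the difference was 0.38 ± 0.11 (adjusted p = 0.104). Eif2ak4, the amino acid sensor GCN2, and Eif2ak3, the endoplasmic reticulum kinase PERK, differed by 0.12 ± 0.10 and 0.04 ± 0.11 with overlapping groups.

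The eIF3 complex, the scaffold between the small subunit and eIF4F, was represented by 11 genes. Of these, 1 fell and 8 had negative differences (background 61.5%). Eif3h read 12.15, 12.21 and 12.27 in sanroque arrays, against 12.57, 12.53 and 12.47 in wild-type arrays. The groups were 0.202 apart, and the difference of -0.32 ± 0.07 passed only with all 6 arrays (adjusted p = 0.0432). Eif3l read 9.96, 9.91 and 10.17 in sanroque arrays and 10.48, 10.43 and 10.28 in wild-type arrays, a difference of -0.38 ± 0.09 that did not pass (adjusted p = 0.064). Eif3d, Eif3i, Eif3k and Eif3m also had all sanroque values below all wild-type values, with differences of -0.15, -0.27, -0.22 and -0.26 and none called. A second probe set of Eif3m differed by -0.33, again with groups that did not overlap. Eif3a, the large core subunit, lay on the other side of 0, at 11.15, 11.29 and 11.27 in sanroque arrays and 11.09, 11.09 and 11.06 in wild-type arrays, with a difference of 0.15 ± 0.07 (adjusted p = 0.288). Eif3b, its core partner, read 10.19, 10.14 and 10.74 in sanroque arrays and 10.03, 10.09 and 10.03 in wild-type arrays. Most of that difference of 0.31 ± 0.16 came from sanroque 3 (adjusted p = 0.367). The groups overlapped for Eif3c, Eif3e and Eif3f, with differences of 0.06, -0.22 and -0.06.

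**Figure D2:**
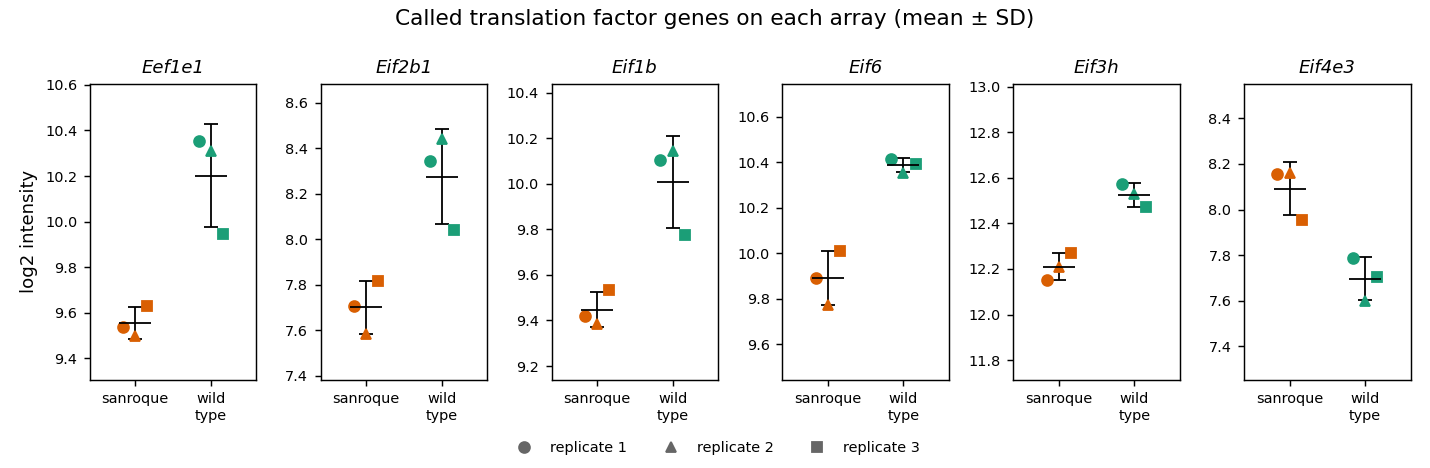
Log2 intensity of the 6 factor genes that passed the test, on each array, with the mean and SD of the 3 sanroque arrays left of the 3 wild-type arrays. In Eef1e1, Eif2b1 and Eif1b wild type 3 (squares) is the lowest wild-type array, and in Eif4e3 sanroque 3 is the lowest sanroque array, while no sanroque value crosses a wild-type one in any panel.

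The cap-binding complex eIF4F and its helpers had 12 genes, of which 1 rose and none fell by limma, with 3 lower at an unadjusted p under 0.05. Eif4e3 encodes an eIF4E relative that binds the cap in its own way. It read 8.16, 8.16 and 7.96 in sanroque arrays, against 7.79, 7.60 and 7.70 in wild-type arrays. Sanroque 3 was the nearest to wild type, and the difference of 0.39 ± 0.09 passed narrowly (adjusted p = 0.0475). Eif4e, the main cap-binding protein, read 9.86, 10.01 and 10.06 in sanroque arrays and 10.32, 10.33 and 10.12 in wild-type arrays, a difference of -0.28 ± 0.09 (adjusted p = 0.13). Its other 2 probe sets differed by -0.08 and 0.04 with overlapping groups, so the probe sets of this gene disagreed.

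Among the helicases that unwind the leader of the mRNA, Eif4a2 read 11.30, 11.31 and 11.75 in sanroque arrays and 11.92, 11.98 and 11.88 in wild-type arrays. Sanroque 3 lay close to wild type, and the difference of -0.47 ± 0.13 did not pass (adjusted p = 0.085). Eif4a1 read 12.28, 12.16 and 12.22 in sanroque arrays and 12.40, 12.36 and 12.28 in wild-type arrays, a difference of -0.13 ± 0.07 that did not pass (adjusted p = 0.419), and its other 2 probe sets gave -0.11 and -0.15. Eif4a3, a helicase of the exon junction complex rather than of eIF4F, differed by -0.44 ± 0.17 with overlapping groups (adjusted p = 0.204). Eif4a3 has a near-identical copy, Eif4a3l1, so signal between these genes may be mixed.

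The scaffold gene Eif4g3 read 9.71, 9.57 and 9.59 in sanroque arrays, against 9.44, 9.41 and 9.27 in wild-type arrays. All sanroque values were higher, and the difference of 0.25 ± 0.08 did not pass (adjusted p = 0.123). Eif4h, a helper of the helicase, differed by 0.20 ± 0.21, with 9.87, 10.20 and 10.76 in sanroque arrays and 10.12, 10.13 and 9.96 in wild-type arrays. Sanroque 3 stood above the rest, and without it the difference was -0.038. Eif4b, Eif4e2, Eif4e1b, Eif4g2 and Eif4a3l1 differed by -0.15 to 0.13 with overlapping groups. Eif4a3l1 had the lowest mean level of the factor genes (4.31), near the low end of the scale.

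The 3 proteins that keep eIF4E from eIF4F gave no call by limma and none at an unadjusted p under 0.05. Eif4ebp2, a 4E-BP, read 9.52, 9.35 and 9.24 in sanroque arrays and 9.23, 9.20 and 9.10 in wild-type arrays. Its groups were 0.00929 apart, and the difference was 0.19 ± 0.09 (adjusted p = 0.307). Eif4ebp1, the 4E-BP that mTORC1 is best known to phosphorylate, lay on the other side of 0, at 6.81, 6.82 and 6.71 in sanroque arrays and 6.96, 6.87 and 6.92 in wild-type arrays, with a difference of -0.14 ± 0.07 (adjusted p = 0.342). Eif4enif1, which carries eIF4E into the nucleus, differed by 0.19 ± 0.09 with overlapping groups.

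Eif6 fell. It encodes a factor that binds the large ribosomal subunit and keeps it from joining the small one too early, and that is also needed to make that subunit. It read 9.89, 9.77 and 10.01 in sanroque arrays, against 10.42, 10.35 and 10.39 in wild-type arrays. The groups were 0.342 apart, and the difference was -0.50 ± 0.08, with a limma adjusted p of 0.0183. Eif5a, whose hypusine-bearing product helps ribosomes past difficult peptide bonds, read 11.03, 10.86 and 11.25 in sanroque arrays and 11.50, 11.56 and 11.10 in wild-type arrays. Wild type 3 lay within the sanroque values, and the difference of -0.34 ± 0.15 did not pass (adjusted p = 0.271). A second probe set of Eif5a gave -0.10, and its relative Eif5a2 differed by 0.04 ± 0.08.

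The eEF1 group had 9 genes, of which 1 fell and 8 had negative differences (background 61.5%). Eef1e1 is named after elongation but encodes AIMP3, a scaffold protein of the multi-tRNA synthetase complex. It read 9.54, 9.50 and 9.63 in sanroque arrays, against 10.35, 10.31 and 9.94 in wild-type arrays. Wild type 3 again lay nearest to sanroque, with a gap of 0.313 between the groups. The difference of -0.65 ± 0.12 passed (adjusted p = 0.0259). Eef1d and Eef1b2 encode subunits that reload eEF1A with GTP. Eef1d read 8.71, 8.81 and 8.82 in sanroque arrays and 9.14, 9.03 and 9.02 in wild-type arrays, a difference of -0.29 ± 0.07 (adjusted p = 0.0641). Eef1b2 read 11.21, 11.19 and 11.26 in sanroque arrays and 11.46, 11.41 and 11.36 in wild-type arrays, a difference of -0.19 ± 0.06 (adjusted p = 0.161). In both the groups did not overlap, yet neither passed.

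Eef1a1 encodes the tRNA carrier itself. It read 14.61, 14.60 and 14.49 in sanroque arrays and 14.63, 14.57 and 14.58 in wild-type arrays, and its difference of -0.03 ± 0.07 did not pass (adjusted p = 0.923). No gene had a higher mean level than Eef1a1 (14.58), and whether its signal was saturated was not tested. Eef1a2, the muscle and neuron form, differed by -0.14 ± 0.10. The 4 methyltransferases that modify eEF1A (Eef1akmt1, Eef1akmt2, Eef1akmt3 and Eef1aknmt) differed by -0.17 to 0.09 with overlapping groups. Among these, Eef1akmt3 had a low mean level of 4.78.

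Of the 4 genes around eEF2 and the selenocysteine factor, none was called by limma or passed an unadjusted p under 0.05. Eef2, the translocase, read 12.94, 12.99 and 13.04 in sanroque arrays, against 12.85, 12.84 and 12.88 in wild-type arrays. All sanroque values were higher by a small step, and the difference of 0.13 ± 0.06 did not pass (adjusted p = 0.32). Eef2k, the kinase that stops eEF2, differed by -0.01 ± 0.06, Eef2kmt, a methyltransferase of eEF2, by -0.19 ± 0.09, and Eefsec, which delivers selenocysteine, by 0.02 ± 0.06, all with overlapping groups.

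**Figure D3:**
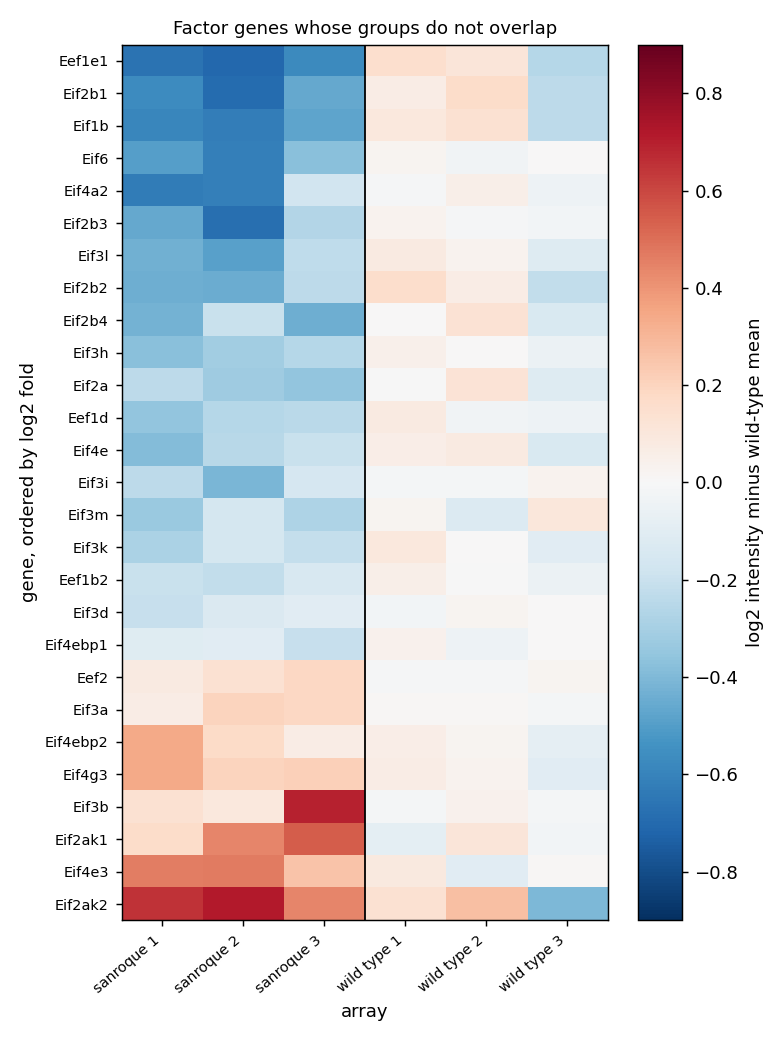
Log2 intensity minus the wild-type mean of the gene, for the 27 factor genes whose sanroque and wild-type values do not overlap (rows, ordered by difference) on each of the 6 arrays (columns, sanroque left). The colour scale is centred on 0, and among the 19 genes below wild type sanroque 3 is the sanroque column nearest to wild type in 14 and wild type 3 the lowest wild-type column in 14.

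The arrays within a genotype were not alike for these genes. Of the 19 genes with all sanroque values below all wild-type values, sanroque 3 was the highest sanroque array in 14 and wild type 3 the lowest wild-type array in 14. The median level over the 60 factor genes was 9.10, 9.18 and 9.23 in sanroque arrays, against 9.31, 9.33 and 9.15 in wild-type arrays. Wild type 3 thus lay among the sanroque arrays by this median, and the groups overlapped.

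Other genes of translation were read from 8 lists with 86 different genes. Of these, 2 rose and 8 fell, with a median difference of -0.07 (background 3.26% called higher and 2.51% lower). Among all genes with a mean level of at least 6, 4.81% were called higher and 4.98% lower. The median level of the 86 genes was 8.71. Without sanroque 1, sanroque 2, wild type 1 or wild type 2, only 1 or 2 of the 86 genes were called lower. A negative difference was found for 68.3% of the 60 factor genes, against 61.5% of all genes. The enzymes that make hypusine on eIF5A and diphthamide on eEF2 were 8 genes, all with negative differences and a median of -0.40. In 5 of them all sanroque values lay below all wild-type values, and 1 passed. The background for such groups was 13.2% of all genes and 20.6% of genes with a mean level of at least 6. All 8 enzymes had such a level. That gene was Dph7, which acts late in diphthamide synthesis, at 7.90, 7.97 and 8.25 in sanroque arrays and 8.59, 8.57 and 8.63 in wild-type arrays, a difference of -0.56 ± 0.10 (adjusted p = 0.0254).

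Of 10 mitochondrial translation factors, 2 fell and none rose, and 9 had negative differences (background 61.5%). Mrrf, the ribosome recycling factor, read 7.66, 7.62 and 7.67 in sanroque arrays, against 8.33, 8.20 and 8.32 in wild-type arrays. Both groups were tight and far apart, and the difference was -0.64 ± 0.07 (adjusted p = 0.00462). Mtif3, an initiation factor, differed by -0.41 ± 0.08 (adjusted p = 0.0388).

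The 20 cytosolic tRNA synthetase genes, counted with their scaffold proteins, gave 1 call in each direction. Wars, the tryptophan enzyme, whose gene responds to interferon, read 9.67, 10.10 and 9.97 in sanroque arrays and 9.19, 9.37 and 9.09 in wild-type arrays. All sanroque values were higher, by 0.70 ± 0.13 (adjusted p = 0.0272). Farsb, a subunit of the phenylalanine enzyme, differed by -0.33 ± 0.07 (adjusted p = 0.0432). The median of the list was -0.10.

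Of the 12 phosphatases and targets that stand downstream of phosphorylated eIF2, 1 rose. Asns, asparagine synthetase, read 5.66, 5.85 and 5.59 in sanroque arrays, against 4.37, 4.50 and 4.38 in wild-type arrays. It differed by 1.29 ± 0.09 (adjusted p = 0.00176), the largest difference among the 86 genes. Its wild-type values lay near the low end of the scale. The other 11 genes of this list did not pass, with 3 of the 12 higher and 1 lower at an unadjusted p under 0.05. The lower one was Atf4, at -0.32 ± 0.13 with overlapping groups (adjusted p = 0.243). Of the 12 genes, 8 had positive and 4 had negative differences.

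In the mTORC1 axis, which drives eIF4E through the 4E-BPs, 2 of 13 genes fell and none rose. Sesn1, a sestrin that restrains mTORC1, differed by -0.68 ± 0.10 (adjusted p = 0.0163), and Rheb, the GTPase that activates mTORC1, by -0.40 ± 0.09 (adjusted p = 0.043). Genes with opposite roles in the axis therefore fell together. Of the 14 other regulators of initiation, 1 fell. It was Pdcd4, an inhibitor of the eIF4A helicase, at 11.34, 11.30 and 11.19 in sanroque arrays and 11.65, 11.89 and 11.79 in wild-type arrays, a difference of -0.50 ± 0.09 (adjusted p = 0.0226). Of the 4 genes for poly(A)-binding proteins and their partners, 1 fell, the repressor Paip2, by -0.47 ± 0.10 (adjusted p = 0.0466).

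The 6 termination and recycling genes gave no call by limma, with 1 lower at an unadjusted p under 0.05. Hbs1l, which rescues stalled ribosomes, differed by -0.20 ± 0.08 (adjusted p = 0.203), and Gspt1, a release factor, by 0.22 ± 0.12 (adjusted p = 0.427).

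**Figure D4:**
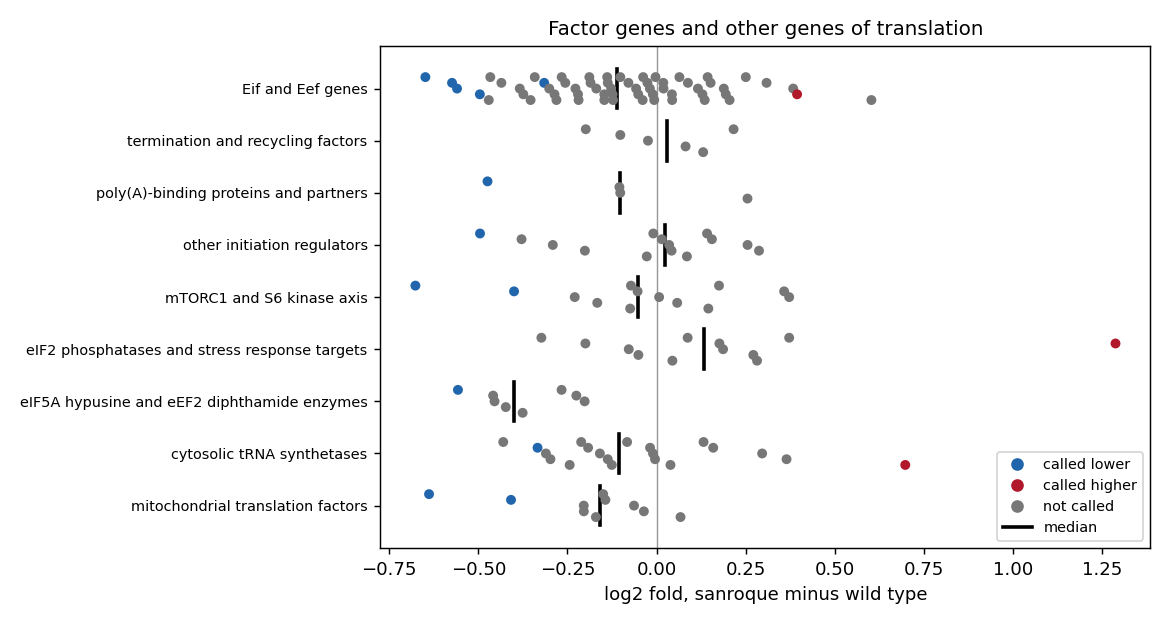
Log2 difference, sanroque minus wild type, for the 60 factor genes (top line) and each gene of the 8 other lists of translation genes, with called genes coloured and the list median marked. The 8 hypusine and diphthamide genes all lie left of 0, and Asns stands alone at 1.29 among the eIF2 targets.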

How the data were processed

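RNA of 6 samples, 3 per genotype and labelled biological replicates, was hybridised to Affymetrix arrays as biotin-labelled cRNA, per the labels' protocols. For each array, the deposited table holds a linear intensity per probe set (9.56 to 31996 overall), and the array medians lay between 53.6 and 56.9. The only tool that the submitters' processing notes list is Partek, without its role. How background, probe summaries and scaling were handled is not given in the sources used here. There is no detection call either, so no gene was called absent. Values were turned into log2 here and not normalized again. No column belonged to other samples (0 columns).

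The platform annotation gave exactly 1 symbol to 21789 of the 35399 probe sets, several to 1621 and no entry to 11989. For 19856 of the 19938 genes the symbol was brought up to date by gene identifier (GRCm38.p6), and the probe set with the highest mean represented each of the 999 genes with several. Groups were compared with limma 3.58.1 (lmFit and eBayes, two-sided) in R 4.3.3, with Benjamini-Hochberg adjustment over all genes and a threshold of 0.05. The code was tested on simulated data. Motifs and figures used Python 3.11.15 and matplotlib 3.10.9. A level is log2 intensity and a difference is sanroque minus wild type, with its standard error. Levels of different probe sets are not comparable. The number of arrays limits the precision.

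Named genes were the called ones, the highest-signal and smallest-p gene of each role, the 10 smallest p among genes with separate groups, the called genes of each pathway list (or its 2 smallest p) and the 2 largest marker differences. The other factor genes given by value were picked with their values already known. The factor genes, lists and motifs were chosen with earlier results of these data known. Alternatives were the mean of probe sets, a minimum mean level of 6, quantile normalization, median centring, eBayes with a trend or robust, array weights, a replicate block, each array left out, and 2 arrays left out.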

Additional observations from a re-analysis of the deposited data

How the results depend on the processing

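Numbers of called factor genes moved with the settings. Over 15 alternatives Eif1b, Eif2b1, Eif6 and Eef1e1 stayed called in 9, Eif3h in 6 and Eif4e3 in 4. The highest limma adjusted p of these 6 called genes was 0.262. All 6 kept their sign, but leaving out arrays could not change it, because their groups do not overlap. The eBayes settings, the replicate block and the minimum level do not alter a gene's difference either. The kept signs are therefore no separate support for the directions. The count of genes called higher, 1 in the reported analysis, was 0 with median centring, with the eBayes trend and with robust eBayes, 5 with array weights, 0 to 1 when each array was left out, and 0 with sanroque 1 and wild type 2 both left out. In the limma analyses that gave 0, 4 to 6 genes were higher at an unadjusted p under 0.05. The count called lower, 5 as reported, was 8 with the minimum level of 6, 8 with the eBayes trend, 22 with array weights, 0 to 7 when each array was left out, and 0 with the 2 arrays left out, where 11 were lower at an unadjusted p under 0.05. That last setting was added after seeing the data and leaves out the array of each genotype with the highest median of myeloid markers. Array weights also raised the calls over all genes to 1998 higher and 2735 lower, against 650 and 501 as reported. Over all genes, 649 of 9750 were called lower with the minimum level and 525 of 19938 with the eBayes trend. Genes with all sanroque values above wild type, 8 as reported, numbered 8 to 13 when each array was left out and 16 with the 2 arrays left out, where fewer arrays make separation easier, and those below, 19 as reported, numbered 19 to 28. No count of separated groups over all genes is given with arrays left out, so these numbers lack a background. Among the 86 pathway genes, 2 called higher as reported became 5 with quantile normalization, 10 with array weights and 1 to 4 when each array was left out, and 8 called lower became 32 with array weights, 1 to 7 when each array was left out and 1 with the 2 arrays left out. The median difference of the factor genes was negative in all 15 alternatives, between -0.14 and -0.05, but it was no lower than that of all genes without wild type 2 (-0.052 against -0.053) and close to it with the 2 arrays left out (-0.060 against -0.058). When each array was left out, the difference of Eef1a1 ranged from -0.047 to 0.012 and that of Eif4h from -0.038 to 0.41, and both changed sign without sanroque 3. The 35 factor genes followed were the named ones and those with groups that do not overlap or with larger differences. Over these, 448 values kept sign and side of the threshold, 44 lost the call, 31 gained it and 2 changed sign. The other factor genes, with overlapping groups and smaller differences, were not followed. The 2 sign changes therefore do not speak for all factor genes. All 44 losses were of the 6 called genes, the only ones with a call to lose. The cause of these changes was not tested.

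The labels number the biological replicates but state no pairing between genotypes. Deviations of same-numbered arrays correlated at -0.05, -0.16 and -0.37 over all genes. Differently numbered arrays were not compared, so these values cannot decide whether the samples were paired. With a replicate block, no factor gene was called by limma (0 higher and 0 lower, with 4 and 16 at an unadjusted p under 0.05), and 1 pathway gene was called in each direction.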

Other observations

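Probe sets that carry a factor's symbol together with another gene's were left out of the counts and were not tested. The probe sets shared by Eif3j1 and Eif3j2, near-identical genes for the j subunit of eIF3, differed by -0.22 and -0.26, with all sanroque values below all wild-type values in both. Those shared by Eif4a3 and its copy Eif4a3l1 differed by -0.42 and -0.44, again with groups that did not overlap, whereas the probe set of Eif4a3 alone differed by -0.44 with overlapping groups. The 4 probe sets shared by the eIF1A family differed by -0.10 to 0.06, that of Eif5 and Snora28 by 0.17, that of Eef1a1 with Mir703 by 0.18 and that of Ankhd1 with Eif4ebp3 by -0.02, all with overlapping groups.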
